A study of Rattus norvegicus with 6 samples.

Results

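Interferon-stimulated genes are genes whose transcription is raised by interferons, the signaling proteins of antiviral defense. Here 9 of them were followed through the start of the heartbeat in the rat embryo. Rsad2 was picked for its fall in these same arrays, and Mx1, Mx2, Isg15, Irf1, Irf7, Irf9, Stat2 and Oas1a were added as other interferon-stimulated genes and regulators of the response. The 9 genes, of 19297 genes with a symbol on the array, were chosen by gene name, and all 10 probes that carry these names are described. For a test, a probe had to be well above background on each of the 3 arrays of one group or the other. This held for 6 of the 9 genes, and for Rsad2 only through the pre-heartbeat group, in which it was the higher.

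Heart primordia were dissected from embryos of the Wister rat (the spelling of the labels, Wistar in the methods) on embryonic day 10, with no treatment and no altered allele in either group. Primordia with a flat center, from embryos with 3 to 4 somites, formed the pre-heartbeat group. Those with a raised center, from embryos with 4 to 5 somites, formed the post-heartbeat group. Each group had 3 biological replicates with 1 array each, and the number of embryos behind a replicate and their sex were not given in the sources used here, so p-values measure only the spread between these samples. The primordium is whole tissue, so fewer cells of a type and less RNA per cell cannot be told apart. All 9 cardiac markers on a list, among them Nkx2-5, Myh6 and Tnnt2, were well above background on all 6 arrays. The arrays lay on 2 slides, slide 1 with 1 pre-heartbeat and 2 post-heartbeat arrays and slide 2 with 2 pre-heartbeat arrays and 1 post-heartbeat array. Of the tested probes, 16.3% differed between the slides at a limma adjusted p under 0.05, and of the 6 tested members 0 did.

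Type I interferons bind the receptor of Ifnar1 and Ifnar2, whose kinases Jak1 and Tyk2 phosphorylate Stat2, among other STAT proteins. Stat2 joins Irf9 in a complex that binds the interferon-stimulated response element (ISRE) in promoters, while interferon gamma acts at gamma-activated sites (GAS). Rsad2 encodes viperin, an enzyme that turns CTP into a chain terminator of viral RNA synthesis, and Cmpk2, the gene next to it, encodes a mitochondrial nucleotide kinase. Both are known as genes that interferon and viral infection induce together.

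The promoters of Rsad2 and Cmpk2 are shown because these had the lowest log2 fold changes of the tested genes of the pathway, and those of Irf7 and Oas1a because they hold the same element while their probes were near background. The sequences are those of RefSeq on the GRCr8 build, 250 bases before the start of the gene, written in the direction of the gene. Capitals mark the ISRE core searched for, GAAANNGAA on the strand of the gene or its reverse complement TTCNNTTTC.
Rsad2 promoter, chr6:48788121-48788370, minus strand: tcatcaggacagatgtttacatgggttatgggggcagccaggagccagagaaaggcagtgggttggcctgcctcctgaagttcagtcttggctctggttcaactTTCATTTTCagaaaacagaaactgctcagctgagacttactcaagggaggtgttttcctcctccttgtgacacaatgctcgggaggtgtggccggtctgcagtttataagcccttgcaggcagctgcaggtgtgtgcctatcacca
Cmpk2 promoter, chr6:48802600-48802849, plus strand: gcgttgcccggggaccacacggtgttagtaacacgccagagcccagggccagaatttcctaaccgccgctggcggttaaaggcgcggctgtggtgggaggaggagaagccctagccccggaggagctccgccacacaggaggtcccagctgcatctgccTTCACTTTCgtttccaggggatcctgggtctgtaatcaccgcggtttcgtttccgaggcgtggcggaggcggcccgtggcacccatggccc
Irf7 promoter, chr1:205800024-205800273, minus strand: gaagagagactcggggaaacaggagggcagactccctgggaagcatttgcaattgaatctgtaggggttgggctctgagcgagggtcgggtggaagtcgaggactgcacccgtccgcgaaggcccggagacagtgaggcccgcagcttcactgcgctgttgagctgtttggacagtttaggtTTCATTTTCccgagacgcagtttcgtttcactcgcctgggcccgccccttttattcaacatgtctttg
Oas1a promoter, chr12:41330216-41330465, plus strand: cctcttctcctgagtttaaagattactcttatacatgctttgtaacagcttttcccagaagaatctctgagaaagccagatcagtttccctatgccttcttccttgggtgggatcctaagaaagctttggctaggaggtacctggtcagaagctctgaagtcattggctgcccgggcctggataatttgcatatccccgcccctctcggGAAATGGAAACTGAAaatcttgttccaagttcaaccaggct
The core lies 138 to 146 bases before the start of Rsad2 and 83 to 91 bases before the start of Cmpk2, in both on the opposite strand. Irf7 has it 60 to 68 bases before its start, with the same 9 letters as Rsad2. Oas1a has 2 overlapping copies on its own strand, within 27 to 41 bases before its start. In windows that also hold 50 bases after the start, the core was in 3 of the 7 members with a promoter sequence and in 9.71% of 33469 promoters. The GAS letters TTCNNNGAA, which read the same on both strands and overlapped no ISRE core in these windows, were in Irf1, Irf9 and Oas1a and in 8.87% of all promoters. Mx1 and Stat2 held neither set of letters. Rsad2 and Cmpk2 run away from each other, with starts 14.7 kb apart. These matches are letters in a window and not measured binding sites.

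Signals are log2 values of the processed signal less the 75th percentile of that array, and they are compared only within a probe. The probe of Rsad2, at chr6:44100787-44100846 on the minus strand of the rn4 genome, had signals of -4.99, -5.86 and -5.08 in the pre-heartbeat group. In the post-heartbeat group the signals were -7.28, -8.31 and -8.42. All 3 post-heartbeat arrays were below all 3 pre-heartbeat arrays. The probe stood well above background on every pre-heartbeat array but on 0 of the post-heartbeat ones. The means were -5.312 ± 0.479 (SD, n = 3) and -8.003 ± 0.625 (SD, n = 3), a log2 fold change of -2.69. With each post-heartbeat array set at its lowest signal called well above background, or at that of Rsad2 where higher, Rsad2 was 3.73-fold lower. This is not a firm bound, as some probes above that level were not called, such as Isg15 at -6.42 on the third post-heartbeat array. As Rsad2 was picked for this fall, it is a description without a test. The study's methods selected genes that were higher by 1.5 fold or more with a p under 0.05, taken here as unadjusted. Extended here to lower genes with the same cutoffs, this selection held 167 genes as lower. Just above and below Rsad2 in the order of measured log2 fold change stood Myh15 with -3.41 and Mab21l1 with -2.48, a place that goes back to the choice of Rsad2 and that uses post-heartbeat signals at background.

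The fall of Rsad2 was measured near the floor of the array. In intensity units, its 2 spots read 48.3 and 58.6 on the first pre-heartbeat array, 28.1 and 13.8 on the second, and 42.5 and 44.9 on the third. On the post-heartbeat arrays, the spots read 16.0 and 4.14, then 4.399 and 4.52, then 5.28 and 4.70. On the second pre-heartbeat array, the spot at 13.8 was not well above background, and if both spots had to be so, Rsad2 would not have been tested. Within the slides, the measured signals differed by -2.81 on slide 1 and -2.94 on slide 2, again with post-heartbeat signals at background. With normexp background correction and an offset of 50 added to every spot, the log2 fold change was -0.68.

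**Figure D1:**
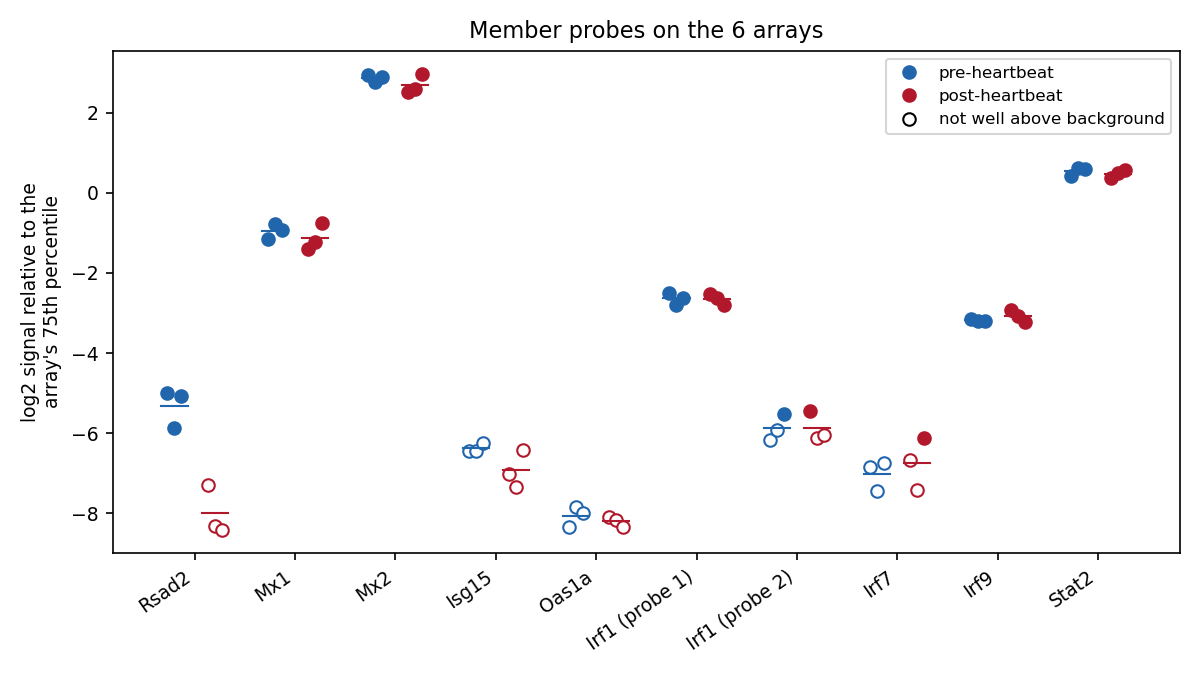
Log2 signal of the 10 member probes on each of the 6 arrays, less the 75th percentile of that array. Blue points are pre-heartbeat and red points post-heartbeat arrays, horizontal lines are group means, and open points are not well above background. Rsad2 is the one member with full points in one group and open points in the other, and the signals of different probes are not comparable.

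None of the 5 other tested members passed a limma adjusted p under 0.05, where 0.14% of the 19299 tested probes did, nor with the slide as a block, where 1.62% did. Their unadjusted limma p was 0.345 or more, and their groups overlapped. Mx1 and Mx2 encode dynamin-like GTPases that block viruses. The probe of Mx1, at chr11:37438580-37438639, had signals of -1.15, -0.78 and -0.93 before and -1.41, -1.24 and -0.76 after heartbeat initiation. The highest and the lowest of the 6 signals of Mx1 were both post-heartbeat. The log2 fold change was -0.18 (SE 0.21, limma adjusted p = 0.866). Mx2, with a probe at chr11:37572657-37572716, had 2.95, 2.76 and 2.88 before and 2.51, 2.59 and 2.98 after, again with both extremes in the post-heartbeat group. Its log2 fold change was -0.17 (SE 0.17, limma adjusted p = 0.866). Within the slides, the difference was -0.40 on slide 1 and 0.16 on slide 2 for Mx2, and -0.18 and 0.096 for Mx1. The mean of the spots of Mx2 was between 7226 and 13413 intensity units, so this member was far above the floor on every array.

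Isg15 is a ubiquitin-like protein that is joined to other proteins after interferon, and Oas1a belongs to the oligoadenylate synthetases, which detect double-stranded RNA. The probe of Isg15, at chr5:173034674-173034733, was well above background on 0 of 6 arrays. Its signals were -6.45, -6.45 and -6.24 before and -7.02, -7.35 and -6.42 after, from spot means of 9.40 to 20.3 intensity units. Oas1a, at chr12:36815068-36815127, was also well above background on 0 arrays, with signals between -8.35 and -7.85. Neither gene was tested and neither is given a fold, as both groups were at background. For these 2 members no change was detectable at the sensitivity of the array.

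The remaining members carry the signal into the nucleus. The probe of Stat2, at chr7:1580592-1580651, had signals of 0.43, 0.63 and 0.59 before and 0.37, 0.50 and 0.58 after. The log2 fold change of Stat2 was -0.066 (SE 0.14, limma adjusted p = 0.899). Its partner Irf9, at chr15:33744491-33744550, had -3.14, -3.19 and -3.19 before and -2.91, -3.08 and -3.22 after. The log2 fold change of Irf9 was 0.10 (SE 0.14, limma adjusted p = 0.866). Both DNA-binding partners of the complex were thus measured on every array, with differences within the spread of the replicates.

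Irf1, a factor that interferon gamma induces through GAS elements, had 2 probes. The first, at chr10:39227520-39227579, had -2.50, -2.79 and -2.62 before and -2.52, -2.63 and -2.80 after. Its log2 fold change was -0.012 (SE 0.15, limma adjusted p = 0.985), and its sign was not stable when arrays were left out. The second, at chr10:39224461-39224695, was well above background on 1 array of each group and was not tested. Irf7, a factor that raises type I interferon genes, had a probe at chr1:201456889-201456948 that was well above background on the third post-heartbeat array alone. Its signals were -6.85, -7.44 and -6.74 before and -6.67, -7.43 and -6.12 after.

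Cmpk2 had a lower signal on every post-heartbeat array, a difference that passed the threshold with the slide as a block and not without it. Its probe, at chr6:44139218-44139277, is 38.4 kb from that of Rsad2 in the rn4 genome. It had signals of -3.78, -4.25 and -3.77 in the pre-heartbeat group and -4.55, -4.98 and -5.18 in the post-heartbeat group, with no overlap. All 10 spots of Cmpk2 were well above background on every array, so this difference, unlike that of Rsad2, is measured on both sides. Its size depended on the background correction, and with normexp the log2 fold change was -0.51 (limma adjusted p = 0.504). The median spot read 121, 61.9 and 109 intensity units before and 56.8, 44.8 and 47.3 after. The log2 fold change of Cmpk2 was -0.97 (SE 0.22, limma adjusted p = 0.220), which did not pass, and the exact permutation p was 0.1, the smallest that 3 against 3 arrays allow. With the slide as a block it was -1.08 (SE 0.19, limma adjusted p = 0.0405), which passed, in a fit that called 0.461% of the tested probes as lower. The difference was -0.99 on slide 1 and -1.17 on slide 2. In that fit, the call was lost without pre-heartbeat replicate 1 (adjusted p = 0.363), post-heartbeat replicate 1 (0.0575) or post-heartbeat replicate 3 (0.447), and the log2 fold change stayed between -1.18 and -0.96. Cmpk2 was also in the methods' selection as extended here to lower genes, which held 1.15% of the tested probes as lower.

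**Figure D2:**
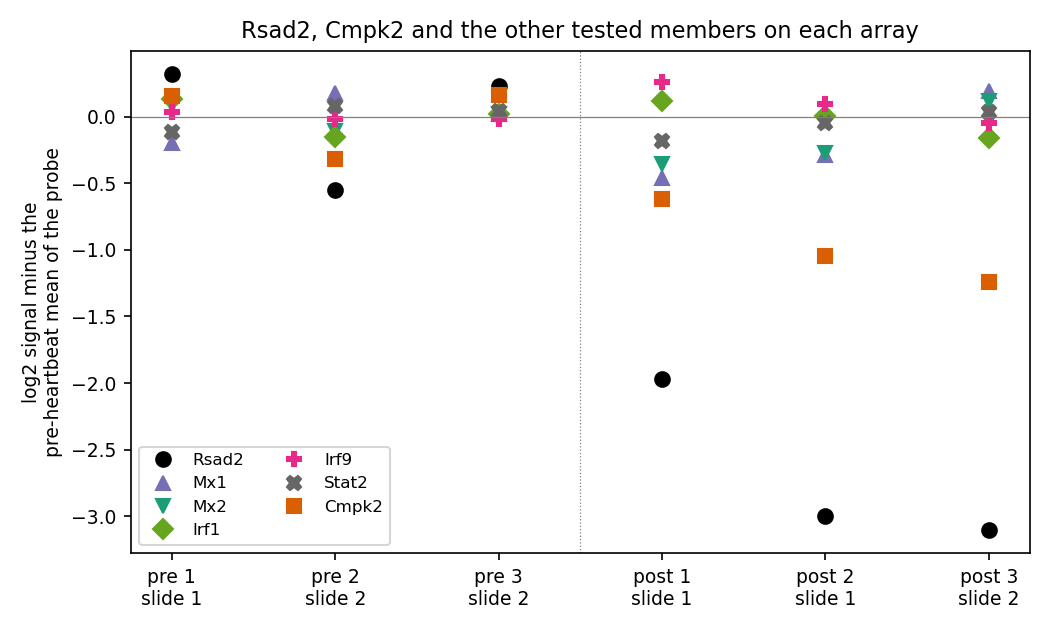
Log2 signal of each tested member and of Cmpk2 on the 6 arrays, after subtraction of the pre-heartbeat mean of the probe, with the slide of each array under its name. Rsad2 (black circles) and Cmpk2 (orange squares) are below 0 on all 3 post-heartbeat arrays, by 1.97 or more for Rsad2 and 0.62 or more for Cmpk2, while the other members stay within 0.457 of 0.

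Other genes of the same region were examined after their values had been seen. Within 2000 kb on either side of Rsad2 in rn4, 14 tested probes other than that of Cmpk2 had log2 fold changes between -0.45 and 0.23. None passed a limma adjusted p under 0.05 (lowest 0.866, and 0.676 with the slide as a block). Rnf144a, the nearest named gene on the other side at 143 kb, had -0.27. Sox11, a factor of neural progenitors at 1041 kb, had 0.0059, and -0.14 with the slide as a block.

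**Figure D3:**
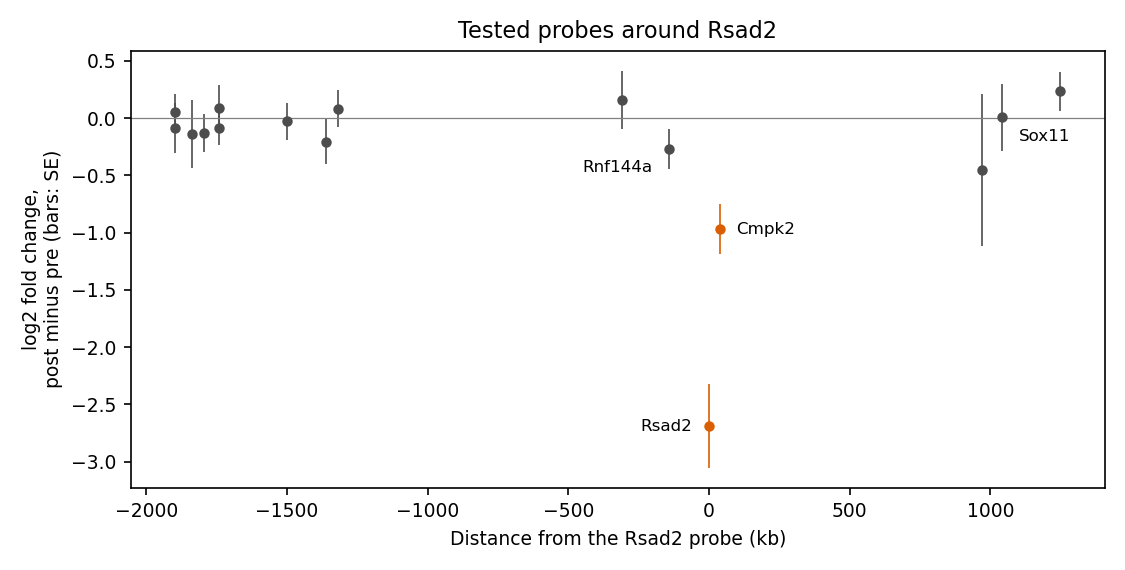
Log2 fold change (post-heartbeat minus pre-heartbeat, bars are SE) of tested probes against their distance in kb from the probe of Rsad2 in the rn4 genome. Rsad2 at -2.69 and Cmpk2 at -0.97 (orange) lie below the other 14 probes, which are between -0.45 and 0.23.

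Among 12683 genes with a tested probe, those whose signals over the 6 arrays were most like Rsad2 were Lef1 with a Pearson r of 0.993, Dmbx1 with 0.991, Gins2 with 0.988, Cmpk2 with 0.987 and Tubb2b with 0.985. Next in order were Olfm1, Zfp622, Pgf, Penk and Tubb3, of which Olfm1, Penk and Tubb3 are expressed in neurons. These 5 are named here after their values had been seen. All are described by 6 points that share the arrays, the slides and the difference between the groups. Lef1, a transcription factor of the Wnt pathway, had signals of -1.23, -1.50 and -1.14 before and -2.07, -2.51 and -2.38 after. Dmbx1, a homeobox factor of the developing brain, had 0.068, -0.59 and -0.15 before and -1.64, -2.06 and -1.97 after. Gins2, a subunit of the replicative helicase, differed by -0.16 on the log2 scale, and Tubb2b, a neuronal tubulin, by -0.51. Mx2, Irf1, Mx1, Stat2 and Irf9 had r of 0.38, 0.33, 0.13, 0.083 and -0.24 with Rsad2.

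The levels upstream of the members were read from lists. Of 13 interferon genes listed, 6 had a probe, and Ifna1, Ifnb1, Ifng, Ifnk and Ifne were well above background on 0 arrays. A probe named Ifna4 was well above background on all 6 arrays, with -2.27, -2.71 and -2.73 before and -2.18, -2.14 and -2.71 after (log2 fold change 0.23, SE 0.22, limma adjusted p = 0.866). The interferon alpha genes are close copies of each other, so the gene behind this signal is uncertain. Of 5 receptor genes with a probe, Ifnar1, Ifngr1, Ifngr2 and Il10rb were well above background on all 6 arrays and Ifnlr1 on 0. Ifngr1, a chain of the interferon gamma receptor, was at -0.23, 0.16 and -0.056 before and 0.30, 0.29 and 0.22 after, with no overlap, and its log2 fold change of 0.31 did not pass (SE 0.15, limma adjusted p = 0.814). Ifnar1 had a log2 fold change of 0.062 (SE 0.20) and Ifngr2 of -0.084 (SE 0.15).

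Of 13 genes of JAK-STAT signaling with a probe, 11 were well above background on all 6 arrays, and 0 passed. Their log2 fold changes lay between -0.17 for Ptpn2, a phosphatase, and 0.25 for Socs3, an inhibitor that cytokines induce. Socs1 and Usp18, both inhibitors that interferon induces, were well above background on 0 arrays. Among the interferon regulatory factors outside the members, Irf2 and Irf4 were at background, and Irf5 and Irf8 were each above it on 1 post-heartbeat array. Irf3, which acts downstream of the nucleic acid sensors, was tested and had a log2 fold change of -0.066 (SE 0.15). Of 19 genes of nucleic acid sensing with a probe, 13 were tested and 0 passed. They ranged from -0.54 (SE 0.31) for Ddx58, the RNA sensor RIG-I, to 0.20 for Trim25, the ligase that activates it. The sensors Ifih1, Tlr3, Tlr7, Tlr9 and Zbp1 were at background on all arrays.

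Other interferon-stimulated genes were well above background less widely than the genes of the array as a whole, a difference that was not tested, and of those tested 0 passed without the slide as a block. Of 63 listed, 60 had a probe, of which 28 were well above background on all 6 arrays, 9 on some and 23 on 0. That is 46.7% on all 6 arrays and 38.3% on 0, where 62.4% and 26.2% of the 19297 genes on the array were so. Those on 0 arrays included Ifit1, Ifit2, Ifi44, Oasl, Oasl2, Cxcl10 and Rtp4, which rise strongly after interferon in many cells. Of the 30 tested, 2 of them through the pre-heartbeat arrays alone, 0 were called by limma, and Cmpk2 was the one with an unadjusted p under 0.05. Their median log2 fold change was -0.070, with 20 negative and 10 positive, against -0.022 over 12685 tested genes. The antiviral membrane proteins Ifitm1, Ifitm2 and Ifitm3 had log2 fold changes of 0.078, -0.12 and -0.15, each smaller than its SE. The kinase Eif2ak2, which stops translation on viral RNA, had -0.026. Among the 3 largest of the list were Cxcl9, a chemokine induced by interferon gamma, with -0.65 (SE 0.39) and well above background before heartbeat initiation alone, and Ddx58. The highest log2 fold change was 0.45 (SE 0.39) for Pml, a nuclear body protein, which did not pass (limma adjusted p = 0.866).

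**Figure D4:**
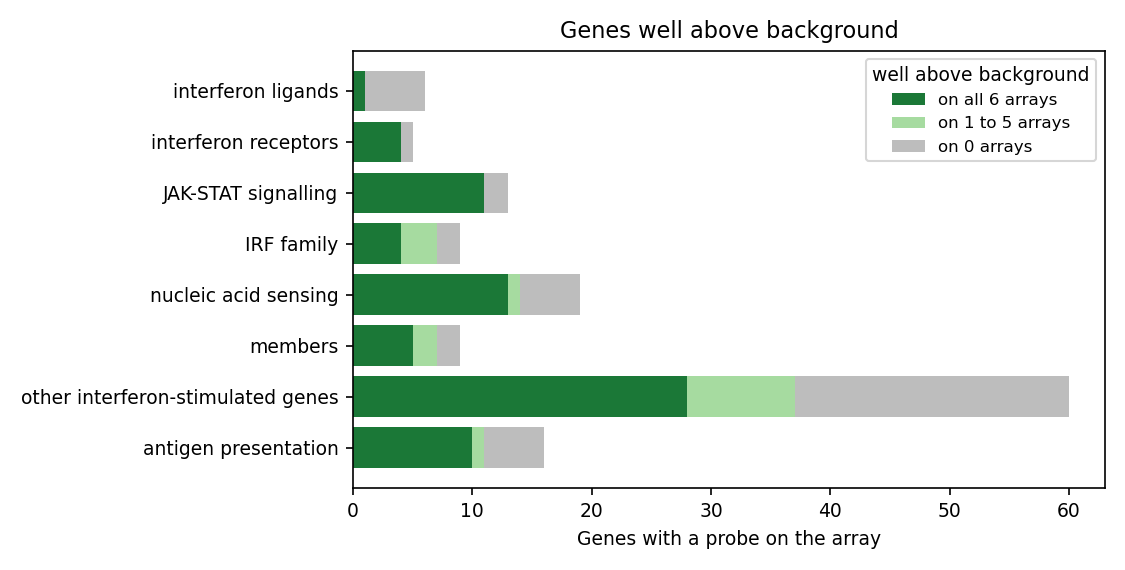
Number of genes of each list with a probe that rose well above background on all 6 arrays (dark green), on 1 to 5 arrays (light green) or on 0 arrays (grey). Of the 5 receptor genes, 4 are dark green, while 23 of the 60 other interferon-stimulated genes and 5 of the 6 interferon genes are grey.

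Antigen presentation, which interferon gamma raises in many cells, had 10 tested genes of 16 with a probe. The peptide transporters Tap1 and Tap2 and the immunoproteasome subunits Psmb8 and Psmb9 were at background on all arrays. Cd74, the invariant chain of class II molecules, had signals of -3.66, -2.77 and -3.12 before and -3.65, -3.93 and -4.20 after, and the log2 fold change was -0.74 (SE 0.26, limma adjusted p = 0.552). B2m, the light chain of class I molecules, had -1.995, -1.65 and -1.87 before and -2.19, -2.24 and -2.15 after, with no overlap, and the groups differed by -0.36 (log2, SE 0.15, limma adjusted p = 0.686). Over all lists of the pathway, 140 genes were listed, 125 had a probe and 71 were tested. Without Rsad2, 0 of 70 passed in limma and 4 had an unadjusted p under 0.05, all of them lower after heartbeat initiation. That is 5.71%, where 7.01% of all tested probes had such a p.

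**Figure D5:**
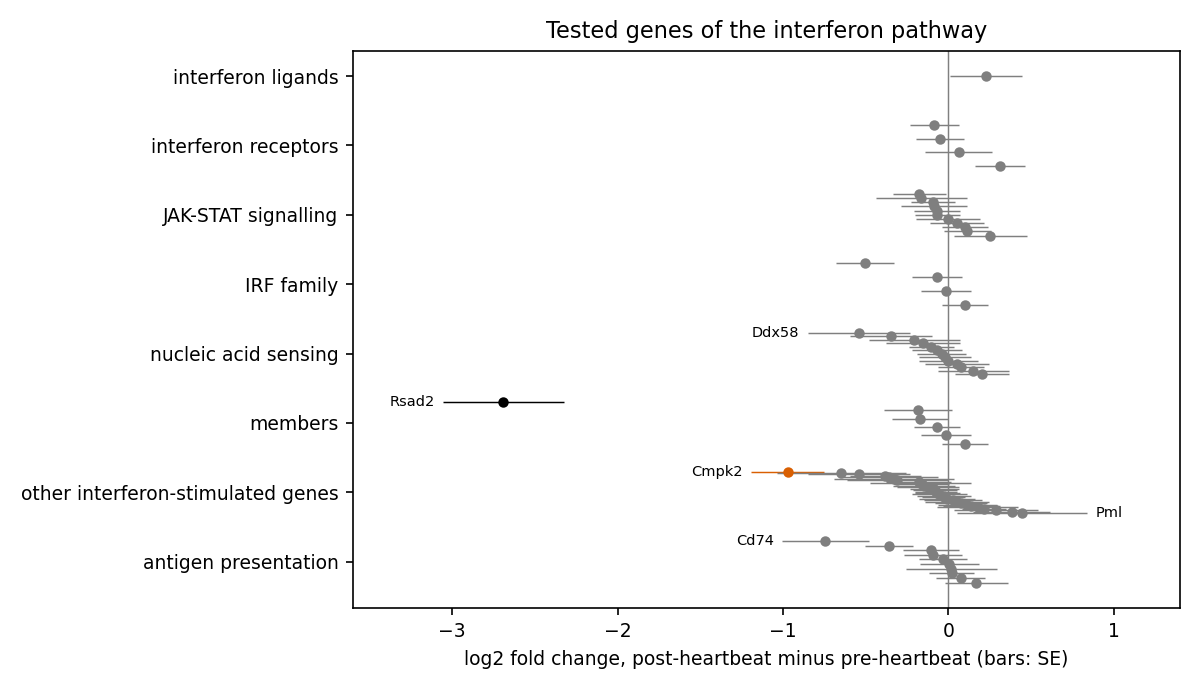
Log2 fold change (post-heartbeat minus pre-heartbeat, bars are SE) of the 71 tested genes of the interferon pathway by list, where a gene can be in several lists. Rsad2 (black) at -2.69 and Cmpk2 (orange) at -0.97 lie farthest from 0, and the other genes are between -0.74 and 0.45.

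Genes that mark other cells of the dissected tissue were read beside these results. Of 16 macrophage and leukocyte markers, 12 were tested and 0 passed, and Ptprc, the pan-leukocyte marker CD45, and Spi1 were well above background on 0 arrays. The summed linear signal of the tested markers, relative to the 75th percentile, was 1.48 to 1.76 before and 1.36 to 1.54 after. Of the 12, 8 had negative and 4 positive log2 fold changes, from -0.42 for Cd14 to 0.21 for Laptm5. The post-heartbeat signals lay below all pre-heartbeat signals for 3 of them, Cd68, Cx3cr1 and Fcer1g, and for 6.14% of the tested probes. The sums of 8 endothelial markers were 19.3 to 19.6 before and 13.8 to 15.4 after, and Kdr, the brightest of them, differed by -0.55 (log2, SE 0.14, limma adjusted p = 0.284). Without Kdr the sums overlapped, with 4.99 to 6.46 before and 4.82 to 5.299 after. Erg, in the methods' selection as extended here to lower genes, differed by -0.60 (SE 0.20, limma adjusted p = 0.499), and Tie1 by 0.50 (SE 0.21, limma adjusted p = 0.712). The sums of 8 yolk sac endoderm markers were 50.7 to 53.8 before and 32.1 to 43.0 after, and 6 of the 8 differed between the slides. The sums of 6 tested erythroid markers were 2.21 to 4.35 and 3.55 to 6.07, and those of 9 cardiac markers 336 to 583 and 603 to 737. Markers of neural tissue were added after the values of the genes most like Rsad2 had been seen. Of 12 listed, 10 had a probe and 7 were tested, of which 6 had negative log2 fold changes and 1, Nes, a positive one. Among the 6, Elavl3 was tested through the pre-heartbeat arrays alone. Their summed signal was 7.82 to 8.99 before and 3.66 to 4.33 after. Most of the pre-heartbeat sum came from Otx2, a homeobox factor of the forebrain and midbrain. The lower sums can therefore not be read as a fall of the markers as a whole. Otx2 had signals of 2.61, 2.57 and 2.73 before and 1.09, 0.96 and 1.19 after, and it fell by 1.56 (log2, SE 0.14, limma adjusted p = 0.0199). Without any one array, Otx2 differed by -1.61 to -1.50 and did not pass (limma adjusted p from 0.0631 to 0.216). Tubb3, a tubulin of neurons, differed by -1.08 (log2, SE 0.21, limma adjusted p = 0.155), and with the slide as a block by -1.21 (limma adjusted p = 0.0160), which passed. Dmbx1, named above and not on the list, also passed with the slide as a block, at -1.76 (limma adjusted p = 0.00994). Tubb3 and Dmbx1 had both been seen among the genes most like Rsad2, which was picked for its fall. A difference between the groups was thus part of how they were found, and their p-values are a description and not a test. In that fit both calls were lost without pre-heartbeat replicate 1 (adjusted p = 0.234 for Tubb3 and 0.198 for Dmbx1) or post-heartbeat replicate 3 (0.248 and 0.181). Post-heartbeat signals lay below all pre-heartbeat signals for 3 of the 7 neural markers, Otx2, Tubb3 and Ncam1, and for 6.14% of the tested probes. The groups overlapped for Elavl3 (log2 fold change -0.67, SE 0.25), Sox2 (-0.21, SE 0.42), Elavl4 (-0.20, SE 0.18) and Nes (0.24, SE 0.24). The signals of Dmbx1, Rsad2 and Cmpk2 were also lower on all 3 post-heartbeat arrays. The part of these cells in the lower signals of Rsad2 and Cmpk2 was not tested.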

How the data were processed

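RNA of 3 pre-heartbeat and 3 post-heartbeat samples was hybridized to 1-color Agilent rat arrays by the authors and quantified with Agilent Feature Extraction 10.7.3.1, per the submitters' processing notes. The deposited processed signal of each spot is an intensity from which background had been subtracted, with no normalization across arrays. A ratio was deposited as well for each probe, shifted by the authors to the 75th percentile and divided by a baseline, and was used as an alternative. Here, log2 signals less the 75th percentile of all 58717 spots other than controls (1146 to 1702 units) were averaged over the spots of a probe, without outlier spots. A probe was well above background on an array if a share of 0.5 or more of its spots were, and 0 spots were saturated. Of 30367 probes, 19299 passed this on each of the 3 arrays of a group and were tested. The brightest tested probe stood for a gene. A low signal limits what can be seen, and the number of arrays limits the precision.

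Groups were compared in limma 3.58.1 (R 4.3.3, with data.table at 1.17.8) over all tested probes, with Benjamini-Hochberg adjustment and a threshold of 0.05, and by a two-sided exact permutation test for Cmpk2. The test was checked on simulated data. The methods' selection used the Tukey HSD test and, in the study, took higher genes only. It was extended here to lower genes with the same cutoffs. Of the lists, 5 genes were found through a RefSeq name. Named were all members, per list the genes called or selected and the 3 largest changes, Cmpk2, and the 5 genes most like Rsad2. Others were named after their values had been seen, and a few genes of the lists are not reported here by name. Neural markers were listed after the data were seen. Members, lists and tests were chosen with earlier results of these data known. Alternatives were the replicate number or slide as a block, normexp, quantile normalization, another percentile, other filters, the authors' ratios, the methods' test, a trend in limma, the mean of a gene's probes and leaving out each array. Promoters were searched on both strands.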

Additional observations from a re-analysis of the deposited data

How the results depend on the processing

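Under all alternatives, 0 members other than Rsad2 were called, and the median of the other interferon-stimulated genes stayed between -0.10 and -0.0034. Among listed genes of the interferon pathway other than Rsad2, Cmpk2 was the 1 called with the slide as a block. It was also the 1 in the methods' selection as extended here to lower genes, and 0 were called elsewhere. The log2 fold change of Rsad2 was -0.68 with normexp, whose offset adds to a signal near the floor, and between -3.05 and -2.48 when an array was left out. When a share of spots above 0.5 had to be well above background, a setting added after the data were seen, Rsad2 could not be fitted. With the slide as a block, Cmpk2 missed the threshold when quantile normalization (limma adjusted p = 0.0624) or normexp (0.0568, log2 fold change -0.56) was combined with it, combinations also added then. Over the alternatives that change 1 choice its adjusted p was between 0.0405 and 0.763. With an array left out, Irf1 ranged from -0.090 to 0.061 and the slide difference of Mx2 from -0.13 to 0.43. The sign of Irf1 turned without pre-heartbeat replicate 1 (0.055) or post-heartbeat replicate 3 (0.061). The slide difference turned for Rsad2 from -0.55 to 0.0067 with normexp and for Mx2 from 0.15 to -0.13 without post-heartbeat replicate 3.

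Over all probes, limma called 23 as higher and 4 as lower. The slide as a block gave 223 and 89, normexp 43 and 7, the trend 38 and 7, the mean of a gene's probes 43 and 11 genes, no filter 1 and 0, the methods' test after adjustment 0 and 0, and the methods' selection 365 and 222. The higher calls were 11 with quantile normalization, 12 with the percentile over probes well above background and 10 with the authors' ratios. Without one array, 0 to 1 were higher and 0 to 1 lower. The causes were not tested.

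The replicate number as a block gave 95 higher and 49 lower. Among listed genes of the interferon pathway other than Rsad2, 0 were called in that fit (Cmpk2 limma adjusted p = 0.0930). Same-numbered arrays deviated together in the first pair (r = 0.65) and the third (0.49) and oppositely in the second (-0.28), so the numbers were not taken as a pairing.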

Other observations

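Probes of 1 gene name differed in what they read. Igtp, an interferon-induced GTPase, had 3 probes, with mean pre-heartbeat signals of 6.72, -3.59 and -6.32, and post-heartbeat signals of 6.63, -3.72 and -6.53. The first, at chr10:43837008-43837067, was well above background on all 6 arrays, and the third was well above background on 2 pre-heartbeat arrays and 1 post-heartbeat array. None of the tested probes of Igtp passed. Among the oligoadenylate synthetases, Oas1b was well above background on all 6 arrays with a log2 fold change of -0.083 (SE 0.13), Oas2 had -0.18 (SE 0.19), and Oas1a, Oas1i and Oas1k were at background on all arrays. Ccl5, a chemokine, was higher on all 3 post-heartbeat arrays than on any pre-heartbeat array, with a log2 fold change of 0.22 (SE 0.13) that did not pass (limma adjusted p = 0.866).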
